A study of Mus musculus with 15 samples.

Results

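The genes described are 9 genes of retinoic acid synthesis, binding and breakdown, Stra6, Rdh10, Dhrs3, Aldh1a2, Aldh1a3, Crabp1, Crabp2, Cyp26b1 and Rxra, followed across 3 groups of mouse heart cells. They were chosen by name, and 9 of 9 have a value, each from 1 probe set, among 13513 named genes. The names rest on an inference that no source states: the values of each identifier were taken from 6900 rows further down the deposited table, or 6903 rows for identifiers of chromosomes 10 and 11. Every named value below depends on it.

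Expression arrays measured RNA of 15 samples, 5 in each group, from hearts of C57BL/6 mice aged 8 to 12 weeks. EpiSC were epicardial stromal cells 5 days after myocardial infarction, released from the heart surface by shear during collagenase perfusion. aCF were fibroblasts of infarcted hearts, also 5 days after infarction, and CF were fibroblasts of unstressed hearts. For both fibroblast groups the atria were removed, and strainers and a slow spin took out heart muscle cells. The sources used here name neither a sham operation nor a sort by surface marker. Cell type and isolation differ together between EpiSC and aCF and cannot be told apart. The samples are called biological replicates, and whether each came from its own animal is not stated. From each sample 1 ng of total RNA was amplified and labelled with biotin.

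Retinoic acid is a hormone-like derivative of vitamin A that switches genes on through nuclear receptors. Stra6 takes retinol into the cell, Rdh10 oxidises retinol to retinal, Dhrs3 reduces retinal back to retinol, and Aldh1a2 and Aldh1a3 oxidise retinal to retinoic acid. Crabp1 and Crabp2 bind retinoic acid in the cytosol, Cyp26b1 breaks it down, and Rxra is the partner of the retinoic acid receptors on DNA. In the developing heart the epicardium is known as a source of retinoic acid, made there by Aldh1a2.

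The support for the inferred order was measured on genes other than the 9. It used identifiers of chromosomes 1 to 9 and X only, so the displacement of 6903 rows for chromosomes 10 and 11 was not tested. None of the 9 genes lies on chromosomes 10 and 11, but Rara, Meis1 and Tcf21 do, among others named below. Of 63 probe sets of cell cycle genes, 53 had all 5 CF arrays below all 10 other arrays at the displacement of 6900 rows. As deposited 2 of the 63 did so, and at any other of the 9178 displacements tried at most 12. The share over all rows at 6900 was 4.85%. Within groups, the mean pairwise correlation of these probe sets was 0.218 at 6900 rows, 0.013 as deposited and at most 0.0682 elsewhere. A list of 49 leukocyte probe sets did not show it, with 0.0107 at 6900 rows and its highest value, 0.0727, at another displacement. Tested by chromosome over 51 displacements, 6900 rows gave the highest correlation on 6 of the 7 chromosomes that hold the members. On chromosome 1, which holds Rdh10, the margin was small, 0.164 at 6900 rows against 0.161 at another displacement. The exception was chromosome 6, which holds Cyp26b1, where 8 probe sets gave 0.21 at 6900 rows and 0.225 at 6886. Hoxa5, Ret, Hoxa2 and Col1a2, among others named below, also have identifiers of chromosome 6. Chromosome X, which holds none of the 9 genes, gave -0.0315 at 6900 rows and 0.187 at 6905. Near the members whose differences are largest, Crabp2 lies 3 rows before Iqgap3 and Rdh10 lies 96 rows before Sgo2a, both cell cycle genes low in CF at this displacement. Before Rdh10 the table has no such gene, so its place is bounded on 1 side only.

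The values are log2 expression after subtraction of the probe set's median across all 15 arrays, so they give differences between groups and no absolute level. A value of 0 is the middle array and does not mean absence. Each of the 15 arrays correlated best with an array of its own group. Correlations lay between 0.551 and 0.671 among EpiSC, between 0.213 and 0.540 among aCF and between 0.743 and 0.845 among CF. On the first principal component, which held 51.3% of the variance, aCF4 (6.35) and aCF5 (4.48) stood on the EpiSC side of the other aCF arrays (-4.51 to -1.64). Results that rest on aCF are therefore also given without both where that changes them.

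Promoter sequences are shown for 3 of the genes, to set beside the values that follow. Crabp1 and Dhrs3 passed Benjamini-Hochberg adjustment for aCF minus CF, and Aldh1a2 is the enzyme known from the epicardium. They are the 250 bases before the annotated start, read on the gene's strand, from RefSeq on GRCm38.p6, whose table held 6 of the 9 genes. Capitals mark the CCAAT box, the GC box GGGCGG and the TATA box motif TATAAA, on either strand. The Crabp1 window, chr9:54764498-54764747 on the plus strand, holds 5 copies of GGGCGG. The Aldh1a2 window, chr9:71215539-71215788 on the plus strand, holds 1 CCAAT, and the first Dhrs3 window, chr4:144892577-144892826 on the plus strand, holds 0 of the 3 motifs. Dhrs3 has 2 further annotated starts, whose overlapping windows hold 2 and 1 CCAAT.
Crabp1: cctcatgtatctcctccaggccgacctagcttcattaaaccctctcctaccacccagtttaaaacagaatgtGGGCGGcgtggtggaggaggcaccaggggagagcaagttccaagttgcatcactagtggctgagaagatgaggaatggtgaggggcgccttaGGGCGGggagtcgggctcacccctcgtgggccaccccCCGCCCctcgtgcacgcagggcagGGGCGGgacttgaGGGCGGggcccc
Aldh1a2: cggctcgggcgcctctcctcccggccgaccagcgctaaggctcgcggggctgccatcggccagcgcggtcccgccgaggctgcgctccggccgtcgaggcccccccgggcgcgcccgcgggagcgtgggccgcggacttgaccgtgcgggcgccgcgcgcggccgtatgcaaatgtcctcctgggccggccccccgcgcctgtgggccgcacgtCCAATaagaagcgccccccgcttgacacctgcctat
Dhrs3: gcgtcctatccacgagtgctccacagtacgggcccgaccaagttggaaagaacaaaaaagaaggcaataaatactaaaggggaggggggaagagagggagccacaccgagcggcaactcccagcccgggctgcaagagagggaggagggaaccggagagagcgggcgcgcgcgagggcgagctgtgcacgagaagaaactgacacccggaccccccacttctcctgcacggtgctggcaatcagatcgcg
The half-site AGGTCA and its common variant AGTTCA, units of the elements that retinoic acid receptors bind, were searched on both strands and occur in 0 of these 3 windows. Among all 32851 promoter windows of this length, 24.2% held such a half-site, 33.9% held CCAAT, 32.7% held GGGCGG and 12.4% held TATAAA. Direct repeats of the half-site with 5 bases between them occurred in 0.033% of windows. A window without these letters says nothing about the receptor.

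Against aCF, EpiSC were higher in Rdh10 and Crabp2, with differences of 4.20-fold and 5.36-fold. These 2 of the 9 genes passed limma with Bonferroni adjustment over 22206 rows, both upward, beside 0.666% of all rows (0.401% upward and 0.266% downward). With Benjamini-Hochberg adjustment 3 of 9 passed, Aldh1a3 being added, beside 9.61% of all rows (4.61% upward and 5.01% downward). In 4 of 9 genes, Rdh10, Aldh1a3, Crabp1 and Crabp2, every EpiSC array was above every aCF array, beside 12.4% of paired rows (6.48% upward and 5.91% downward). The median difference over the 9 genes was 0.21 on the log2 scale, and 0.01 over all rows. Since the RNA is of whole cell fractions, fewer cells of a type and less RNA per cell cannot be told apart.

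Against CF, aCF were higher in Crabp2, by 4.22-fold, which was 1 of 9 genes past Bonferroni in limma, beside 1.53% of all rows (1.21% upward and 0.32% downward). With Benjamini-Hochberg adjustment Dhrs3 and Crabp1 passed as well, 3 of 9 genes and all upward, beside 18.1% of all rows (8.74% upward and 9.38% downward). Arrays did not overlap for 4 of 9 genes, upward for Dhrs3, Crabp1 and Crabp2 and downward for Stra6, beside 17.3% of paired rows (9.92% upward and 7.33% downward). The median difference of the 9 genes was 0.20, and -0.02 over all rows. EpiSC against CF, a comparison that shares its arrays with both others, had Rdh10 and Crabp2 past Bonferroni, 2 of 9 genes beside 2.91% of all rows (1.97% upward and 0.941% downward). With Benjamini-Hochberg adjustment 5 of 9 genes passed, Rdh10, Dhrs3, Aldh1a3, Crabp1 and Crabp2, beside 32.2% of all rows (14.5% upward and 17.7% downward). Every EpiSC array was above every CF array for Rdh10, Aldh1a3, Crabp1 and Crabp2, 4 of 9 genes beside 25.1% of paired rows (14.0% upward and 11.1% downward).

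**Figure D1:**
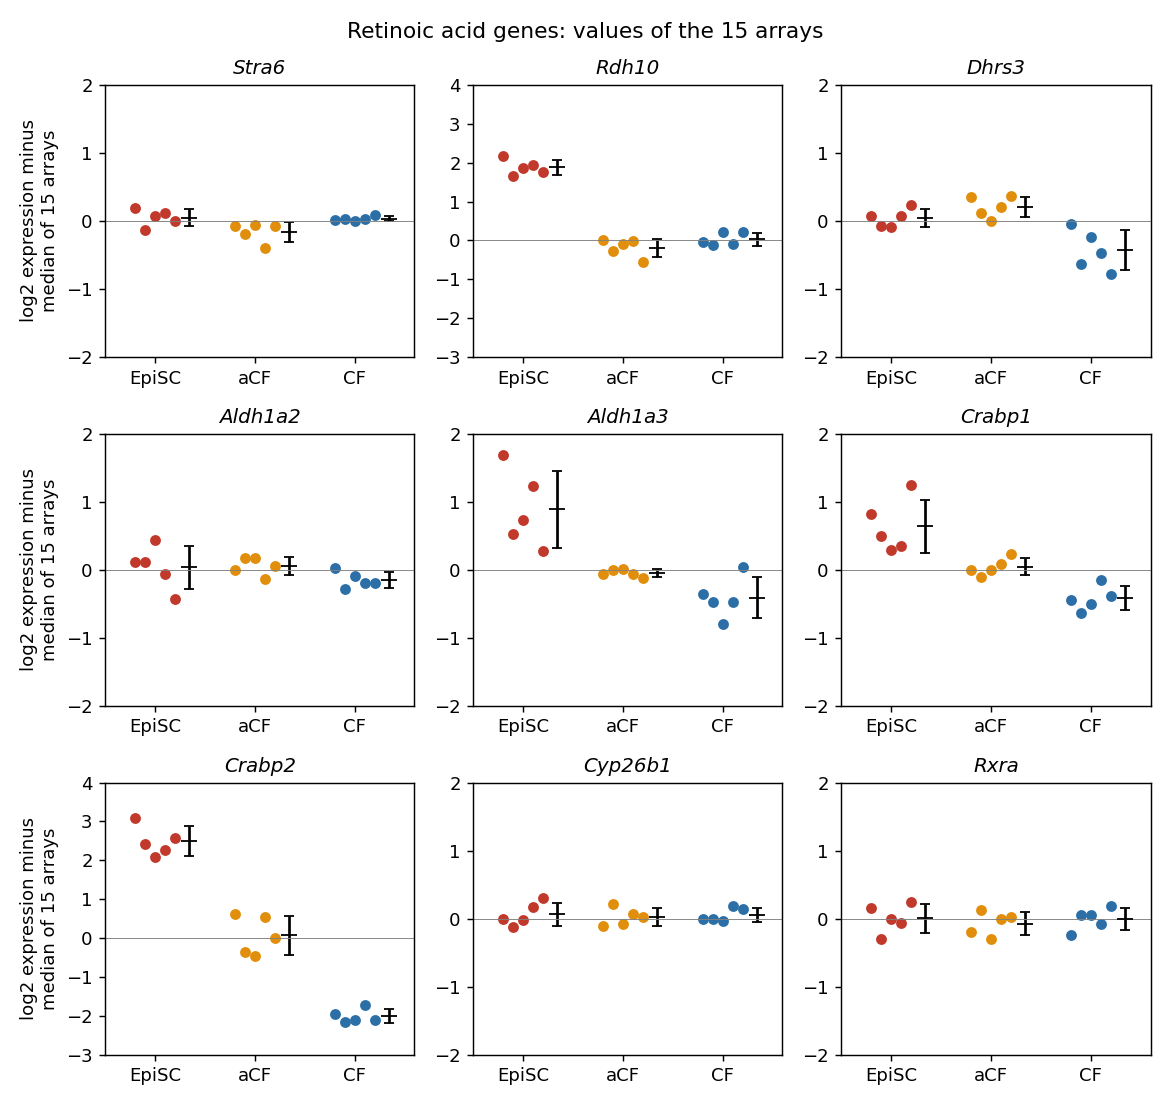
Median-centred log2 expression of the 9 genes, with 1 point per array, groups in the order EpiSC, aCF, CF, and a black bar for the mean ± SD (n = 5). The axes of Rdh10 and Crabp2 cover a wider range than the others. Rdh10 lies between 1.66 and 2.16 in EpiSC and at 0.22 or lower in every other array, and Crabp2 forms 3 separate levels.

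Among the genes before retinoic acid, Stra6, the membrane receptor that carries retinol into the cell, had small differences. Its values were 0.19, -0.14, 0.08, 0.12 and 0.00 in EpiSC 1 to 5, -0.08, -0.19, -0.06, -0.40 and -0.08 in aCF 1 to 5, and 0.01, 0.03, 0.00, 0.03 and 0.09 in CF 1 to 5. The 5 aCF values lie below all 5 CF values and overlap those of EpiSC. The difference was -0.19 ± 0.07 (SE) for aCF minus CF, with a limma Bonferroni-adjusted p of 1 and a Benjamini-Hochberg-adjusted p of 0.0876. It was 0.21 ± 0.09 for EpiSC minus aCF, with an adjusted p of 0.173 by Benjamini-Hochberg in limma.

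Rdh10, the retinol dehydrogenase that supplies retinal, was high in EpiSC. Its values were 2.16, 1.66, 1.87, 1.95 and 1.75 in EpiSC 1 to 5, against 0.00, -0.28, -0.10, -0.02 and -0.56 in aCF 1 to 5, and -0.05, -0.13, 0.22, -0.10 and 0.21 in CF 1 to 5. All 5 EpiSC arrays stand apart from the 10 fibroblast arrays, whose 2 groups overlap. The difference was 2.07 ± 0.13 (SE, 95% confidence interval 1.79 to 2.35) for EpiSC minus aCF, with a limma Bonferroni-adjusted p of 0.000283. It was 1.85 ± 0.11 (1.60 to 2.09), or 3.60-fold, for EpiSC minus CF, with an adjusted p of 0.000187 in limma. Leaving out any 1 array kept both calls. The aCF minus CF difference was -0.22 ± 0.12 with an adjusted p of 1 in limma and 0.243 by Benjamini-Hochberg.

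Dhrs3, the retinal reductase that works against Rdh10, had another pattern. Its values were 0.08, -0.08, -0.09, 0.07 and 0.23 in EpiSC 1 to 5, 0.35, 0.12, 0.00, 0.20 and 0.36 in aCF 1 to 5, and -0.05, -0.63, -0.23, -0.47 and -0.78 in CF 1 to 5. CF were the lowest group, below every aCF array and overlapping EpiSC only through the CF1 array. The difference was 0.64 ± 0.14 (SE), or 1.56-fold, for aCF minus CF, which did not pass Bonferroni in limma (adjusted p = 1) and passed Benjamini-Hochberg with an adjusted p of 0.00879. Without aCF4 and aCF5 that p was 0.0589. EpiSC minus CF gave 0.47 ± 0.13, with a Benjamini-Hochberg-adjusted p of 0.0216 in limma. That call was kept in 9 of 10 omissions of 1 array and lost without CF2, at 0.0534. EpiSC minus aCF gave -0.16 ± 0.09, with an adjusted p of 0.321 by the same method.

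The 2 retinaldehyde dehydrogenases, which make retinoic acid itself, differed in their values. Aldh1a2 had 0.12, 0.11, 0.44, -0.06 and -0.43 in EpiSC 1 to 5, 0.00, 0.18, 0.17, -0.14 and 0.06 in aCF 1 to 5, and 0.03, -0.28, -0.09, -0.19 and -0.19 in CF 1 to 5. The 3 groups overlap, and EpiSC have both the highest and the lowest of the 15 values. The difference was -0.02 ± 0.14 (SE, 95% confidence interval -0.34 to 0.30) for EpiSC minus aCF, with a Benjamini-Hochberg-adjusted p of 0.958 in limma. EpiSC minus CF gave 0.18 ± 0.14 (-0.13 to 0.49) with an adjusted p of 0.361, and aCF minus CF gave 0.20 ± 0.08 (0.02 to 0.38) with 0.123, both by Benjamini-Hochberg in limma.

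Aldh1a3 had 1.69, 0.52, 0.73, 1.23 and 0.27 in EpiSC 1 to 5, against -0.06, 0.00, 0.01, -0.06 and -0.12 in aCF 1 to 5, and -0.35, -0.48, -0.79, -0.47 and 0.04 in CF 1 to 5. All EpiSC arrays were above all fibroblast arrays, and EpiSC also had the widest spread, with an SD of 0.571. The difference was 0.93 ± 0.23 (SE, 0.42 to 1.45), or 1.91-fold, for EpiSC minus aCF. Its limma p was 1 after Bonferroni and 0.0302 after Benjamini-Hochberg adjustment. That second call was kept in 4 of 10 omissions of 1 array, with p up to 0.0673. It was lost without EpiSC4 or without any 1 of the 5 aCF arrays, and without aCF4 and aCF5 together (0.118). Against CF the EpiSC difference was 1.30 ± 0.26, or 2.46-fold, with adjusted p of 1 by Bonferroni and 0.00359 by Benjamini-Hochberg in limma, and it was kept in 10 of 10 omissions. The aCF minus CF difference was 0.36 ± 0.13 with a Benjamini-Hochberg-adjusted p of 0.0722 in limma.

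The 2 cellular retinoic acid binding proteins differed between groups by unequal amounts. Crabp2, which in other cells is known to hand retinoic acid to its nuclear receptors, had 3.09, 2.42, 2.08, 2.27 and 2.58 in EpiSC 1 to 5, 0.63, -0.37, -0.46, 0.53 and 0.00 in aCF 1 to 5, and -1.95, -2.15, -2.11, -1.73 and -2.11 in CF 1 to 5. No group overlaps another, and aCF lie between the other two. The difference was 2.42 ± 0.25 (SE, 95% confidence interval 1.86 to 2.99) for EpiSC minus aCF, with a limma Bonferroni-adjusted p of 0.0448. It was 2.08 ± 0.21 (1.61 to 2.54) for aCF minus CF, with an adjusted p of 0.0289 in limma. It was 4.50 ± 0.17 (4.12 to 4.88), or 22.6-fold, for EpiSC minus CF, with an adjusted p of 2.04e-06.

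The calls that involve aCF stood near the threshold. For EpiSC minus aCF the call was kept in 1 of 10 omissions of 1 array, that of aCF1, with limma p between 0.0483 and 0.264. For aCF minus CF it was kept in 3 of 10, those of aCF1, aCF2 and aCF3, with p between 0.0199 and 0.175. The size changed little, between 2.27 and 2.56 for EpiSC minus aCF and between 1.94 and 2.21 for aCF minus CF. Benjamini-Hochberg adjustment kept both calls in 10 of 10 omissions, with limma p of at most 0.00144 and 0.000552. Without aCF4 and aCF5 the Bonferroni-adjusted p was 0.532 and 0.557 in limma, with differences of 2.55 and 1.94. After a further quantile normalization it was 0.654 and 0.329 in limma. The call for EpiSC minus CF was kept in 10 of 10 omissions.

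Crabp1, which is linked in other cells to the breakdown of retinoic acid, had 0.82, 0.49, 0.29, 0.35 and 1.24 in EpiSC 1 to 5, -0.01, -0.10, 0.00, 0.09 and 0.23 in aCF 1 to 5, and -0.44, -0.63, -0.50, -0.15 and -0.38 in CF 1 to 5. The groups have the same order as for Crabp2, with no overlap and smaller steps. The difference was 1.06 ± 0.18 (SE), or 2.08-fold, for EpiSC minus CF, with a Benjamini-Hochberg-adjusted p of 0.00125 in limma. It was 0.46 ± 0.09 for aCF minus CF, with an adjusted p of 0.00692 in limma, and of 0.0585 in 1 fit of all 3 groups. It was 0.60 ± 0.17 for EpiSC minus aCF, with an adjusted p of 0.0538 in limma, and of 0.0184 in 1 fit of all 3 groups. None of the 3 differences of Crabp1 passed Bonferroni.

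Cyp26b1, the enzyme that breaks retinoic acid down, and Rxra, the receptor partner, differed by little. Cyp26b1 ranged from -0.12 to 0.30 in EpiSC, from -0.11 to 0.22 in aCF and from -0.04 to 0.19 in CF. Rxra ranged from -0.30 to 0.25 in EpiSC, from -0.30 to 0.12 in aCF and from -0.24 to 0.18 in CF. All 3 groups overlap for both genes. For EpiSC minus aCF the 95% confidence interval was -0.18 to 0.25 for Cyp26b1 and -0.18 to 0.34 for Rxra. The aCF minus CF interval was -0.20 to 0.14 for Cyp26b1 and -0.29 to 0.15 for Rxra.

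**Figure D2:**
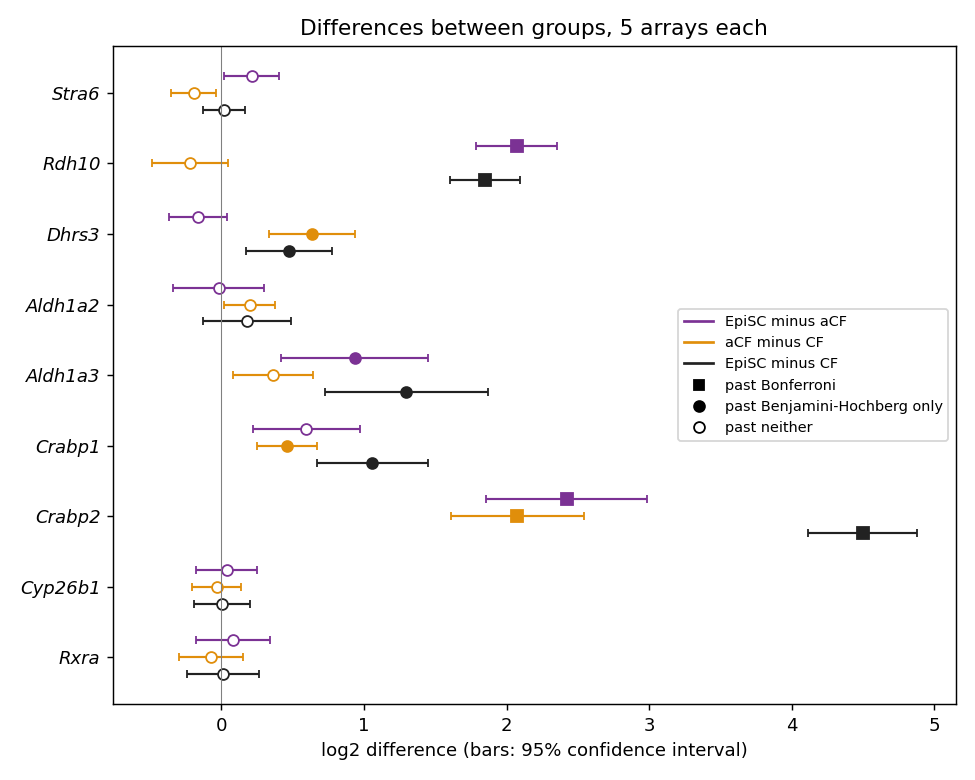
Log2 differences for the 9 genes in the 3 comparisons, with bars for the 95% confidence interval from limma (n = 5 arrays per group). Squares passed Bonferroni, filled circles passed Benjamini-Hochberg only, and open circles passed neither. Rdh10 and Crabp2 lie near 2 for EpiSC minus aCF, with differences of 2.07 and 2.42, whereas Stra6, Aldh1a2, Cyp26b1 and Rxra lie close to 0.

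Opposing or parallel genes were compared within each array, as the difference of their centred values. Rdh10 minus Dhrs3, the forward and the reverse step between retinol and retinal, averaged 1.84 ± 0.22 in EpiSC, -0.40 ± 0.31 in aCF and 0.46 ± 0.35 in CF (SD, n = 5 each). Aldh1a3 minus Aldh1a2 averaged 0.85 ± 0.56 in EpiSC, -0.10 ± 0.11 in aCF and -0.27 ± 0.34 in CF. Crabp2 minus Crabp1 averaged 1.85 ± 0.34 in EpiSC, 0.02 ± 0.48 in aCF and -1.59 ± 0.09 in CF. Of the 9 exact permutation tests (2-sided), 8 gave p = 0.00794, the smallest that 5 against 5 arrays can give, or 0.00893 after Benjamini-Hochberg adjustment over the 9. The other, Aldh1a3 minus Aldh1a2 for aCF minus CF, gave a difference of 0.17 with p = 0.341 in the exact permutation test. Rdh10, Aldh1a3 and Crabp2 alone already set EpiSC apart from both fibroblast groups. Dhrs3 and Crabp2 alone already set aCF apart from CF. The 8 smallest p-values are therefore not separate evidence. How many other gene pairs reach the smallest p was not counted. The unequal change is within arrays. It does not say which of a pair was the more abundant.

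**Figure D3:**
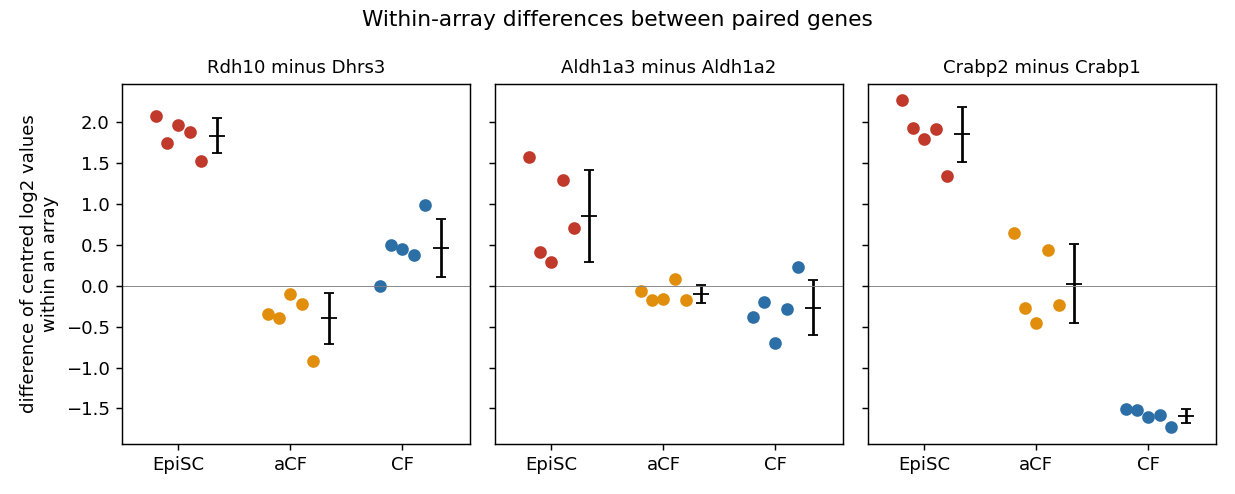
Differences between the centred log2 values of 2 genes in the same array, for 3 pairs, with 1 point per array and a bar for the mean ± SD (n = 5), groups in the order EpiSC, aCF, CF. Rdh10 minus Dhrs3 averages 1.84 in EpiSC and -0.40 in aCF, and Crabp2 minus Crabp1 falls in 3 separate levels.

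Other genes with a similar pattern were named by the highest Pearson correlation over the 15 arrays among 13504 genes. The arrays fall in 3 groups that all genes share, so these correlations are a description. Rdh10 was most like Pdlim4 (0.968), Smpd3 (0.967) and Rspo1 (0.966), and for EpiSC minus aCF these 3 differed by 1.46, 2.29 and 1.48. Crabp2 was most like Tpi1 (0.981), a glycolytic enzyme, Gjb5 (0.979), a gap junction protein, and Get4 (0.976). Gjb5 differed by 2.13 for EpiSC minus aCF with a limma Bonferroni-adjusted p of 0.000245. Aldh1a2 was most like Wfdc3 (0.837), Tas2r118 (0.819) and 4930444G20Rik (0.818). Among the 9 genes, the highest correlations were 0.906 between Crabp1 and Crabp2, 0.843 between Aldh1a3 and Crabp2, and 0.831 between Rdh10 and Aldh1a3.

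**Figure D4:**
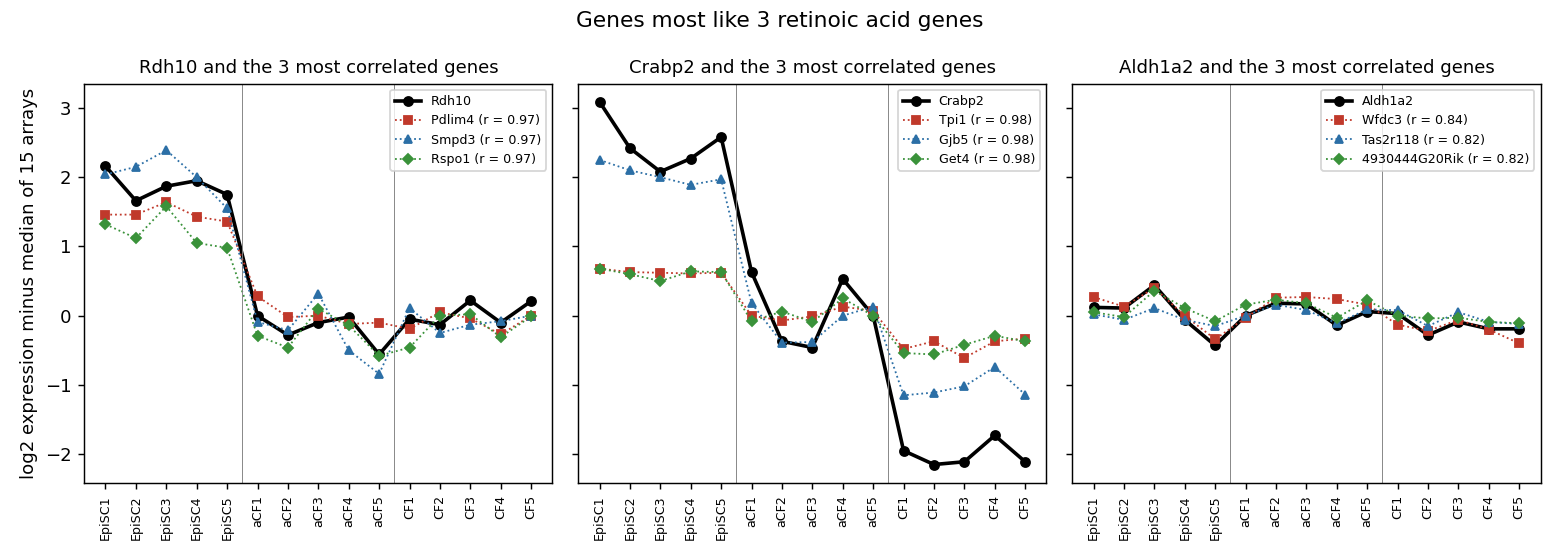
Median-centred log2 expression of Rdh10, Crabp2 and Aldh1a2 with the 3 genes most correlated with each, arrays in the order EpiSC, aCF, CF, where the order within a group has no meaning. The lines of Rdh10 and its partners are high in EpiSC arrays, and those of Crabp2 drop in steps from EpiSC over aCF to CF.

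Of the other genes that handle retinoids, 22 of 38 listed have a value. For EpiSC minus aCF 0 passed Bonferroni in limma in either direction, beside 0.401% of all rows higher and 0.266% lower. An unadjusted p under 0.05 was found for 9, a rule for which no share of all rows was counted. By Benjamini-Hochberg 2 were higher and 2 were lower, beside 4.61% of all rows higher and 5.01% lower. The median difference of the 22 was 0.13, and 0.01 over all rows. The smallest p belonged to Dhrs9, a dehydrogenase of the same family as Dhrs3, with 2.56, 1.56, 3.13, 1.65 and 0.60 in EpiSC 1 to 5 and -0.28, -0.08, 0.41, 0.16 and -0.27 in aCF 1 to 5. Every EpiSC array was above every aCF array, and the spread among EpiSC was wide. Its difference was 1.91 ± 0.41 (SE) with a Benjamini-Hochberg-adjusted p of 0.0149 in limma, and of 0.0697 without aCF4 and aCF5.

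In aCF minus CF 1 of the 22 passed Bonferroni, downward, beside 1.21% of all rows higher and 0.32% lower. By Benjamini-Hochberg 1 was higher and 3 were lower, beside 8.74% and 9.38% of all rows, with a median difference of -0.005. The gene past Bonferroni was Ces1d, a carboxylesterase that can split retinyl esters. It had 0.00, -0.60, 0.01, -1.22 and -0.32 in aCF 1 to 5, against 1.90, 2.11, 2.05, 1.99 and 2.31 in CF 1 to 5. The difference was -2.50 ± 0.21 with an adjusted p of 0.00507 in limma, and the call was kept in 10 of 10 omissions of 1 array. It was lost in 1 fit of all 3 groups, at 0.347. For EpiSC minus CF 1 passed Bonferroni, upward, beside 1.97% of all rows higher and 0.941% lower. By Benjamini-Hochberg 5 were higher and 3 were lower, beside 14.5% and 17.7% of all rows, with a median of 0.105. Fabp5, a fatty acid binding protein that can also carry retinoic acid, was the gene past Bonferroni here. It lay at 0.31 to 0.89 in EpiSC and at -0.70 to -0.53 in CF. Its difference was 1.18 ± 0.10 with a limma Bonferroni-adjusted p of 0.00593.

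Of 18 receptors and cofactors 5 have a value, and 0 of 5 passed Bonferroni in limma in any comparison. The shares of all rows past Bonferroni were 0.666% for EpiSC minus aCF, 1.53% for aCF minus CF and 2.91% for EpiSC minus CF. Unadjusted p in limma was under 0.05 for 4 in EpiSC minus aCF, 4 in aCF minus CF and 3 in EpiSC minus CF. No share of all rows was counted under that rule, so these counts have no baseline. By Benjamini-Hochberg in limma 2 of 5 were lower in EpiSC than in aCF, 1 higher and 2 lower in aCF than in CF, and 3 lower in EpiSC than in CF. The shares of all rows called lower were 5.01%, 9.38% and 17.7% in that order, and 8.74% were higher in aCF than in CF. The median differences were -0.33, -0.24 and -0.52 in that order. Rora, an orphan nuclear receptor, had a difference of -1.13 ± 0.21 for EpiSC minus aCF, with an adjusted p of 0.00826. Against CF its difference was -1.71 ± 0.19, with a Bonferroni-adjusted p of 0.0635 in limma. Rara, the receptor that pairs with Rxra, had a difference of 0.34 ± 0.08 for aCF minus CF, with an adjusted p of 0.00986 by limma and Benjamini-Hochberg.

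Of 30 genes known to respond to retinoic acid 19 have a value. For EpiSC minus aCF 1 of 19 passed Bonferroni, Hoxa5, upward, beside 0.401% of all rows higher and 0.266% lower. By Benjamini-Hochberg 7 were higher and 1 was lower, beside 4.61% of all rows higher and 5.01% lower, with a median difference of 0.20. For aCF minus CF 1 of 19 passed Bonferroni downward, Ret, beside 1.21% of all rows higher and 0.32% lower. By Benjamini-Hochberg 2 were higher and 4 lower, beside 8.74% of all rows higher and 9.38% lower, with a median of -0.002. For EpiSC minus CF Hoxa5 passed Bonferroni upward and Ret downward, beside 1.97% of all rows higher and 0.941% lower. By Benjamini-Hochberg 9 were higher and 3 lower, beside 14.5% of all rows higher and 17.7% lower, with a median of 0.25. Hoxa5, a homeobox gene of the trunk, had 1.45, 1.71, 1.93, 2.02 and 1.11 in EpiSC 1 to 5, 0.00, -0.08, 0.07, 0.13 and -0.08 in aCF 1 to 5, and -0.41, -0.17, -0.45, -0.21 and -0.42 in CF 1 to 5. EpiSC stand above both fibroblast groups with no overlap. The difference was 1.64 ± 0.16 for EpiSC minus aCF, with a limma Bonferroni-adjusted p of 0.0209 that was kept in 1 of 10 omissions, that of EpiSC5, and reached 0.134. It was 0.693 without aCF4 and aCF5 and 0.0594 with trend and robust settings. Against CF the difference was 1.98 ± 0.16 with an adjusted p of 0.00394 in limma, kept in 10 of 10 omissions.

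Ret, a receptor tyrosine kinase, passed downward in 2 comparisons. It had -0.07, -0.14, -0.69, -0.51 and -0.12 in EpiSC 1 to 5, 0.43, 0.00, 0.22, -0.48 and -0.46 in aCF 1 to 5, and 1.82, 1.70, 1.76, 1.98 and 1.39 in CF 1 to 5. CF are above both infarct groups with no overlap. The difference was -1.79 ± 0.18 for aCF minus CF, with a limma Bonferroni-adjusted p of 0.0327 that was kept in 1 of 10 omissions, that of aCF1, and reached 0.195. It was 0.0727 without aCF4 and aCF5, 0.104 after quantile normalization and 0.246 with trend and robust settings. EpiSC minus CF gave -2.04 ± 0.15 with an adjusted p of 0.00107 in limma, kept in 10 of 10 omissions.

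**Figure D5:**
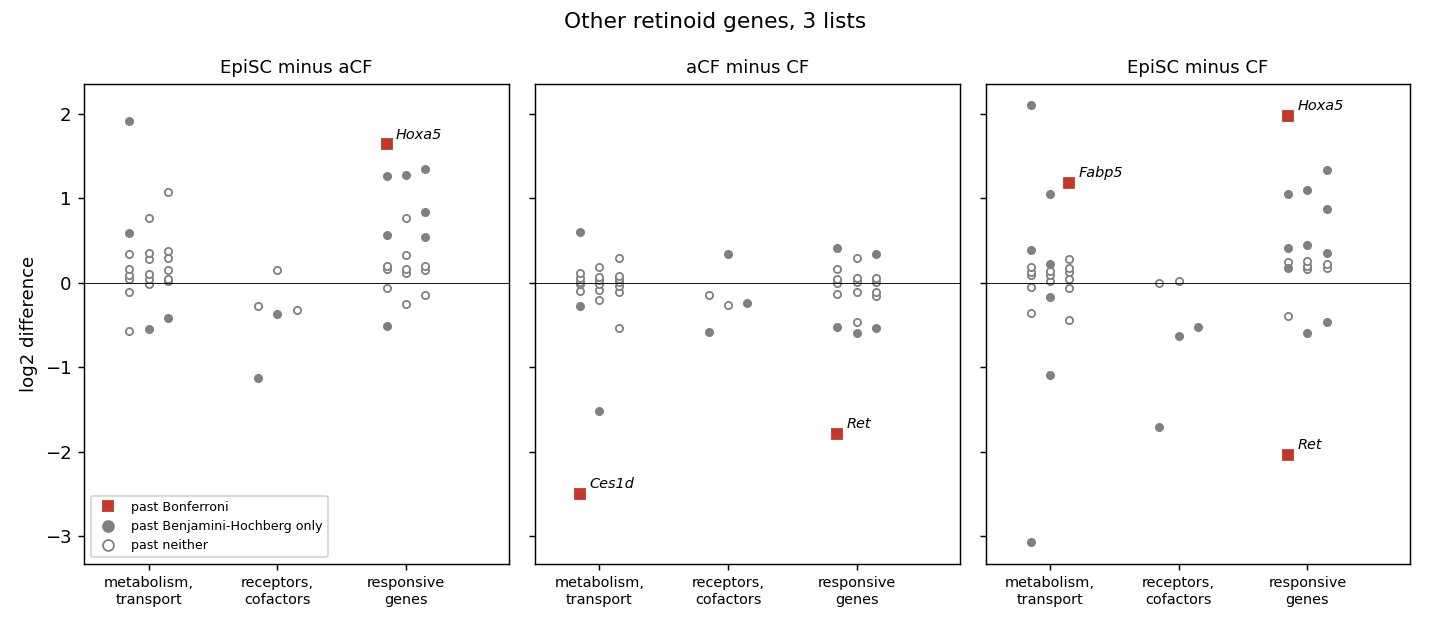
Log2 differences of single genes of 3 lists (other retinoid handling genes, receptors and cofactors, genes known to respond to retinoic acid) in 3 comparisons, with red squares for genes past Bonferroni, filled circles for Benjamini-Hochberg only and open circles for neither. The squares are Hoxa5 (1.64) for EpiSC minus aCF, Ces1d (-2.50) and Ret (-1.79) for aCF minus CF, and Fabp5 (1.18), Hoxa5 (1.98) and Ret (-2.04) for EpiSC minus CF.

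Values of cell type markers also differed between the groups. Of 15 epicardial markers 9 have a value, and their mean per array lay between 1.39 and 2.01 in EpiSC, between -0.74 and 0.20 in aCF and between -1.51 and -0.79 in CF. Wt1, the transcription factor of the epicardium, was higher by 2.01 ± 0.18 in EpiSC than in aCF with a limma Bonferroni-adjusted p of 0.00883. Bnc1, another mesothelial transcription factor, was higher by 2.36, with an adjusted p of 0.017 in limma. Upk3b, a mesothelial membrane protein, had a difference of 2.82 that did not pass, with an adjusted p of 0.332. In EpiSC 3 of 9 epicardial markers passed Bonferroni upward against aCF and 6 of 9 against CF, and 1 of 9 did so in aCF against CF. The shares of all rows upward were 0.401%, 1.97% and 1.21% in that order. The low CF means came with 2 of the 9 markers, named here after their values were seen: for aCF minus CF, Cdh3 differed by 4.62 and Dmkn by 2.41. The other 7 differed by -0.32 to 0.24 for aCF minus CF, and the median of the 9 was 0.17.

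Markers of other cell types were summarized in the same way. The mean of 10 of 12 endothelial markers lay between -0.84 and -0.61 in EpiSC, between -0.16 and 0.41 in aCF and between 0.20 and 0.56 in CF. The mean of 8 of 12 mural markers lay between -0.65 and -0.24 in EpiSC, between 0.23 and 0.61 in aCF and between -0.96 and -0.30 in CF. Rgs5, a pericyte marker, differed by -3.58 for EpiSC minus aCF, with a limma Bonferroni-adjusted p of 0.000162. Mural markers went both ways. Past Bonferroni 1 of 8 was higher and 2 were lower for EpiSC minus aCF. For aCF minus CF 2 were higher and 0 lower, and for EpiSC minus CF 3 were higher and 0 lower. The shares of all rows were 0.401% and 0.266%, 1.21% and 0.32%, and 1.97% and 0.941% in that order. By Benjamini-Hochberg in limma 1 was higher and 5 lower, 5 higher and 0 lower, and 3 higher and 4 lower in that order. The shares were 4.61% and 5.01%, 8.74% and 9.38%, and 14.5% and 17.7%. The median mural difference was -0.47 for EpiSC minus CF. Des, a muscle intermediate filament named after its values were seen, was the higher one for EpiSC minus aCF, by 1.68 ± 0.16. Endothelial means were lowest in EpiSC, and mural means highest in aCF. Endothelial markers also went both ways. By Benjamini-Hochberg in limma 0 of 10 were higher and 4 lower for EpiSC minus aCF. For aCF minus CF 1 was higher and 2 lower, and for EpiSC minus CF 1 was higher and 7 lower. The shares of all rows are those given for the mural markers. Esam, named after its values were seen, lay between 0.32 and 0.82 in EpiSC and between -0.34 and -0.13 in CF. The mean of 9 of 12 macrophage markers lay between -0.26 and -0.04 in EpiSC, between 0.12 and 0.47 in aCF and between -0.20 and 0.07 in CF. The mean of 8 of 12 heart muscle markers lay between -1.08 and -0.57 in EpiSC, between -0.73 and 0.42 in aCF and between 0.30 and 0.57 in CF. Macrophage markers were highest in aCF and heart muscle markers lowest in EpiSC, where their range overlaps that of aCF. The mean of 8 of 10 fibroblast markers lay between -0.36 and -0.03 in EpiSC, between 0.08 and 0.16 in aCF and between -0.29 and -0.20 in CF. Fibroblast markers went both ways. By Benjamini-Hochberg in limma 3 of 8 were higher and 4 lower for EpiSC minus CF, beside 14.5% and 17.7% of all rows. For aCF minus CF 3 were higher and 1 lower, beside 8.74% and 9.38%. For EpiSC minus aCF 0 were higher and 6 lower, beside 4.61% and 5.01%. In CF, Col1a2, named after its values were seen, lay between -1.02 and -0.82, and Tcf21 between 0.17 and 0.55. The mean of 3 of 7 Schwann cell markers lay between -1.03 and -0.35 in EpiSC, between -0.19 and 0.05 in aCF and between 0.12 and 0.59 in CF. In EpiSC these 3 markers, named after their values were seen, lay apart. Cdh19 lay between -3.35 and -1.08, S100b between -0.39 and 0.18 and Kcna1 between -0.04 and 0.39. By Benjamini-Hochberg in limma 1 was higher and 1 lower for EpiSC minus aCF, beside 4.61% and 5.01% of all rows. Cdh5, an endothelial cadherin, differed by -1.96 for EpiSC minus aCF (adjusted p = 0.583 in limma), Ptprc of leukocytes by 0.22 and Tcf21 of fibroblasts by -0.98, both with an adjusted p of 1 in limma. Pecam1, Csf1r and Myh6 were not analysed here. After centring, whether a defining marker is absent from a group cannot be read from the values. The part of these markers in the differences of the retinoic acid genes was not tested.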

How the data were processed

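The deposited values are log2 expression, per the series design text and the file's values: the authors quantile-normalized probe signals in GeneSpring GX, summarized them with ExonRMA16 and subtracted the median of every probe set across all 15 arrays. Base 2 is inferred from that method and from the range (-4.77 to 5.52), since no header names it. Levels and signal over background are lost, and a filter on raw signal that the design text names could not be applied to centred values, so each of the 22206 rows entered the tests. Precision is limited by the number of arrays.

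Of 22206 rows, 15303 received an identifier by the inferred displacement and 6903 did not. The platform annotation gives 19572 probe sets 1 symbol and 2634 none. 0 sample columns were left out.

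Pairwise group differences were fitted with limma 3.58.1 (lmFit and eBayes) in R 4.3.3, 2-sided, with Bonferroni adjustment over all rows at 0.05, and Benjamini-Hochberg as an alternative. The design text names the comparisons of EpiSC with aCF and of aCF with CF, and EpiSC with CF is secondary. The fits were tested on simulated data. Within-array pairs used exact permutation tests over arrays.

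All 9 genes are named. Of the other lists, each gene past the threshold is named, and otherwise the gene with the smallest p. The 3 genes most correlated with Aldh1a2 and with each called gene are named, and a fixed set of markers, of which 1 is not reported here. The genes and lists were chosen with earlier results of these data known.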

Additional observations from a re-analysis of the deposited data

How the results depend on the processing

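Of 450 alternative values for the 27 differences of the 9 genes, 405 kept direction and side of the threshold, 22 no longer passed, 6 newly passed and 17 turned direction. All 22 belonged to Crabp2, in its comparisons of aCF with EpiSC and with CF. All 6 came from the change to Benjamini-Hochberg adjustment. Differences that did not pass in the stated fit had no call to lose, so the 405 do not measure how stable the calls are. Leaving out 1 array reversed 6 small differences at some omission, and their ranges were -0.119 to 0.0985 for Aldh1a2 and -0.021 to 0.0865 for Cyp26b1 in EpiSC minus aCF, -0.0805 to 0.002 for Cyp26b1 in aCF minus CF, and -0.017 to 0.0655 for Stra6, -0.053 to 0.052 for Cyp26b1 and -0.0485 to 0.089 for Rxra in EpiSC minus CF.

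For EpiSC minus aCF, where 2 of 9 genes passed, 1 passed after quantile normalization, 1 with a replicate block, 1 without aCF4 and aCF5, 0 with the table paired as deposited, 3 with Benjamini-Hochberg adjustment, and 1 to 2 with 1 array left out. For aCF minus CF, where 1 passed, the counts were 0 after quantile normalization, 0 with the block and 0 without aCF4 and aCF5. They were 1 with the table paired as deposited, 3 with Benjamini-Hochberg and 0 to 1 with 1 array left out. In EpiSC minus CF, where 2 passed, they were 5 with Benjamini-Hochberg, 1 as deposited and 2 to 2 with 1 array left out. The counts of genes without overlap between arrays were 4 in each comparison, and 4 to 5 with 1 array left out. With the table paired as deposited they were 3 in each comparison. The cause was not tested.

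In Crabp2 the Bonferroni-adjusted p was 0.654 after quantile normalization and 0.0619 with the block for EpiSC minus aCF, and 0.329 and 0.0629 for aCF minus CF, with differences of 1.94 and 1.83 after quantile normalization. Its difference for EpiSC minus CF was 3.77 after quantile normalization.

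The alternatives for the counts without overlap and for the other retinoid genes were chosen after seeing the data. Among the other retinoid genes, all 3 lists together, 1 passed for EpiSC minus aCF in the stated fit (Hoxa5), 3 in 1 fit of all groups, 0 with trend and robust settings, 2 after quantile normalization, 2 on paired rows only, 0 with the block, 0 without aCF4 and aCF5, 14 with Benjamini-Hochberg and 0 to 2 with 1 array left out. For aCF minus CF the count was 2, against 1 in 1 fit of all groups, 1 with trend and robust settings, 1 after quantile normalization, 0 with the block, 1 without aCF4 and aCF5, 13 with Benjamini-Hochberg and 1 to 2. For EpiSC minus CF it was 3, against 7 in 1 fit of all groups, 5 after quantile normalization, 6 on paired rows only, 1 with the block, 22 with Benjamini-Hochberg and 3 to 5. The replicate numbers are not shown to pair the samples: 2 of 5 EpiSC arrays correlated best with the aCF array of their own number, and same-numbered arrays had correlations of -0.0504 to 0.172 over the 3 pairs of groups.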

Other observations

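Besides Hoxa5, 6 genes known to respond to retinoic acid were higher in EpiSC than in aCF by Benjamini-Hochberg adjustment in limma only. They were Hoxa2 (1.28), Meis1 (0.56) and Meis2 (0.55), which are homeobox genes, Tgm2 (0.84), a transglutaminase, Rarres1 (1.26), and Tbx5 (1.34), a T-box factor of the heart. Nr2f2, an orphan nuclear receptor, was lower (-0.52). None of these 7 passed Bonferroni. The call of Rarres1 was lost without aCF4 and aCF5 (adjusted p of 0.0808 in limma), and was kept in 6 of 10 omissions of 1 array, being lost without EpiSC3, aCF1, aCF2 or aCF4, with p up to 0.0674.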
